A study of Homo sapiens with 12 samples.

Results

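The AP-1 transcription factors examined here were 10 genes taken by symbol from a table of 56609 gene symbols: FOS, FOSB, FOSL1 and FOSL2 of the FOS subfamily, JUN, JUNB and JUND of the JUN subfamily, and ATF3, MAFF and BATF3 of related basic leucine zipper (bZIP) groups. All 10 were among the 21698 genes that passed a filter on low counts, so no member was lost. RNA-seq had been done on A375, an established human melanoma cell line, in 4 groups of 3 libraries each: wild-type cells and cells in which MAPKAPK2 had been knocked out with CRISPR/Cas9, each kept for 48 h in 500 nM JQ1 or in the solvent DMSO (the DMSO libraries are titled as untreated). JQ1 blocks the acetyl-lysine pockets of the BET bromodomain proteins, and MAPKAPK2 encodes MK2, a kinase activated by p38. The series asks how loss of MAPKAPK2 raises resistance to BET inhibitors. The labels do not say whether the knockout line is a clone or a pool, nor whether replicates were separate cultures, so p-values measure the spread between these libraries, which may be technical.

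AP-1 is a dimer of bZIP proteins. FOS proteins cannot pair with one another and bind DNA only with a partner such as a JUN protein, whereas JUN proteins can also pair among themselves. ATF3 and BATF3 pair with JUN proteins, and MAFF is a small MAF protein that has no activation domain of its own. Many of these genes are immediate-early genes, switched on within minutes by growth factor or stress kinases. In melanoma cells such as A375, whose BRAF is mutated, ERK signalling keeps FOSL1 (the protein FRA1) stable and abundant.

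The libraries held between 25316899 and 34594295 estimated counts. Levels are given as CPM (counts divided by the scaled library total, times 1000000), scaled by the trimmed mean of M values (TMM), as mean ± SD of 3 libraries. MAPKAPK2, the targeted gene, was at 89.6 ± 2.20 CPM with DMSO and 117 ± 4.31 CPM with JQ1 in wild type. In the knockout it was at 12.4 ± 1.15 and 14.4 ± 1.61 CPM, so all 6 knockout libraries were low. SOX10, a marker of the melanocyte lineage, was at 389 to 687 CPM in all libraries, and MITF at 25.6 to 44.1 CPM. The pigment genes MLANA, PMEL, TYR, TYRP1 and DCT did not pass 1.45 CPM in any library. Replicate 3 of knockout JQ1 stood apart: its chi-square per degree of freedom against the other 2 libraries of its group was 23.8 and 25.1, and 3.21 to 7.05 for all other replicate pairs. It also held the largest share of 4 abundant noncoding RNAs (RN7SK, RN7SL1, RN7SL2 and RMRP), 14.6%, within a range of 9.42 to 14.6%. It was the highest of its group in 9 of the 10 AP-1 members, and in 41.4% of all tested genes. Replicate 3 of wild-type JQ1 was the lowest of its group in 9 of 10 members, and in 39.1% of tested genes. Comparisons that use replicate 3 of knockout JQ1 are also given without it where a value or call moved.

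Short stretches of promoter are shown because promoters of AP-1 genes are known sites of AP-1, ATF and TATA-dependent control. RefSeq promoters (GRCh38.p14, 250 bases before to 50 after the transcript start) matched 8 members, with 10 windows; FOSL1 and BATF3 had no entry. The motifs searched on both strands were the AP-1 site TGANTCA, the cyclic AMP response element TGACGTCA, the variant TGACATCA known from the JUN promoter, and TATAAA. No motif contains another. Of 35116 promoters of the same length, 7.71% held TGANTCA, 1.85% TGACGTCA, 2.61% TGACATCA and 11.5% TATAAA. Below, 30 bases around the match are printed 5′ to 3′ on the gene's strand, with the match in capitals.
JUN (chr1:58784096-58784125, minus strand): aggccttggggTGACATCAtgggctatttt
ATF3 (chr1:212565273-212565302, plus strand): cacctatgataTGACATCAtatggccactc
MAFF (chr22:38201929-38201958, plus strand): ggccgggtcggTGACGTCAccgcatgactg
FOS (chr14:75278783-75278812, plus strand): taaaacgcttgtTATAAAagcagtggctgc
FOSB (chr19:45467954-45467983, plus strand): gggtcccgggcaTATAAAtacaggctggcg
JUN and the upstream ATF3 start shared TGACATCA, with its first base 67 and 123 bases before the start, at -67 and -123. MAFF held TGACGTCA at -54. FOS and FOSB held TATAAA at -33 and -30. All positions count from the RefSeq start. In the GENCODE 29 models the JUN, MAFF and FOS sites lie inside an exon of the same gene that starts further upstream, so there they are not upstream of the gene. For FOSL2 the only match was TGANTCA at position 5 after the start. A match describes letters only and is not evidence of binding. Any link between these matches and the changes in transcript level was not tested.

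The 250 bases before the start are shown whole for JUNB and JUND, the most abundant JUN transcripts, for which no GENCODE 29 exon overlaps the window.
JUNB (chr19:12791236-12791485, plus strand): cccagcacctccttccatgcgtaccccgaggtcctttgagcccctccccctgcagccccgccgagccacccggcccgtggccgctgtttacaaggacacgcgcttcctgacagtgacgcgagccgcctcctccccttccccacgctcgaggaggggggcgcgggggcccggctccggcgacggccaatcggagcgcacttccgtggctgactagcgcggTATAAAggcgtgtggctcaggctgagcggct
JUND (chr19:18281623-18281872, minus strand): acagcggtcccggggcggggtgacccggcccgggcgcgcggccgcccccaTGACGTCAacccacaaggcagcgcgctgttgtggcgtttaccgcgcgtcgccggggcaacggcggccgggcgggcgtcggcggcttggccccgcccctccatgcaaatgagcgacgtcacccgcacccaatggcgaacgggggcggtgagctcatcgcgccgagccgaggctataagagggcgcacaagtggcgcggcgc
Capitals mark TATAAA at -31 in JUNB and TGACGTCA at -200 in JUND. Neither window held TGANTCA. JUNB, FOS and FOSB thus held TATAAA at -31, -33 and -30 from the RefSeq start (for FOS inside an exon in GENCODE 29), while no TATAAA was found in the windows of JUN, JUND, FOSL2 or MAFF. For ATF3 the window of the downstream start held TATAAA at -230, and that of the upstream start did not hold it.

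Levels between genes were compared per kilobase of the median length of a gene's protein-coding transcripts in GENCODE 29, from 980 bases for BATF3 to 6268.5 bases for FOSL2. Transcripts of a single gene also differed, from 1132 to 1669 bases for FOSL1 and from 482 to 2033 bases for ATF3. Ranks between genes are therefore given for these median lengths, and overlap between libraries does not measure that choice. In wild-type DMSO, JUNB stood at 43.9 ± 2.84 CPM per kb and FOSL1 at 43.3 ± 1.81, and their libraries overlapped. JUND followed at 28.5 ± 1.04, then FOS at 7.42 ± 0.14 and MAFF at 6.92 ± 0.12. The other 5 were lower and close together: FOSB at 2.91, FOSL2 at 2.71, BATF3 at 1.91, ATF3 at 1.56 and JUN at 1.48 CPM per kb. JUN, the founding member of the family, was thus the lowest of the 10 per kb in DMSO at these median lengths, also in the knockout (1.15 ± 0.22). In wild-type DMSO the libraries of JUN and ATF3 overlapped, as did those of ATF3 and BATF3 and those of FOSB and FOSL2. In wild-type JQ1 the first 2 changed places at these median lengths. FOSL1 reached 75.8 ± 5.48 CPM per kb and JUNB 65.7 ± 5.05, with no overlap between their libraries (72.1 to 82.1 and 60.3 to 70.3). In CPM not divided by length JUNB was the higher there, at 120 ± 9.19 against 99.5 ± 7.19 for FOSL1. MAFF at 6.56 CPM per kb stood clear of FOSL2 at 3.90, FOSB at 3.55, JUN at 3.13 and ATF3 at 3.06. Of these 4, each overlapped the next, and BATF3 was last at 1.34. In knockout JQ1 FOSL1 was at 66.7 ± 15.3 and JUNB at 65.4 ± 10.5 CPM per kb, and these overlapped. Without replicate 3, which had 84.4 and 77.4, the order was the other way round: FOSL1 was at 56.4 and 59.4 and JUNB at 57.5 and 61.5 CPM per kb.

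Within the FOS subfamily, FOSL1 supplied most of the summed level per kb in all groups. In wild type its share was 76.9 ± 1.12% with DMSO and 77.7 ± 1.33% with JQ1, and in the knockout it was 72.1 ± 1.89% and 73.2 ± 2.01%. FOS made up 13.2 ± 0.615% and 14.7 ± 0.878% in wild type, and 16.7 ± 1.35% and 18.1 ± 1.71% in the knockout. The FOSL1 share was lower, and the FOS share higher, in the knockout at either treatment, and the shares of FOS did not overlap between genotypes within DMSO or within JQ1. Within the JUN subfamily JUNB gave 57.2 to 61.5% and JUND 37.0 to 40.1% as group means. JUN made up 2.00 ± 0.186% of that sum with DMSO and 2.71 ± 0.218% with JQ1 in wild type, and 1.46 ± 0.191% and 2.95 ± 0.294% in the knockout. These shares were not tested.

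**Figure D1:**
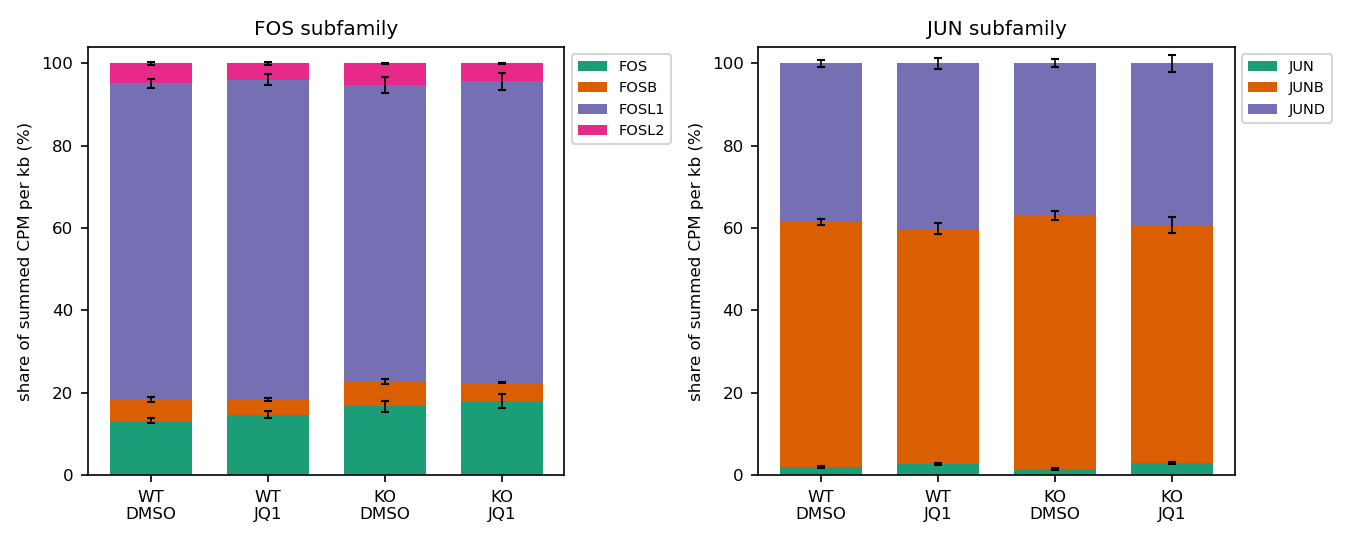
Share (%) of the summed CPM per kb of the FOS subfamily (left) and of the JUN subfamily (right) held by each gene in the 4 groups. Bars are stacked means of 3 libraries and error bars are the SD of the segment whose top they sit on; FOSL1 holds 72.1 to 77.7% of the FOS sum and JUN no more than 2.95% of the JUN sum.

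The first comparison asked how AP-1 transcripts answered JQ1 in wild-type cells. FOS, FOSL1, FOSL2, JUN, JUNB, JUND and ATF3 rose, by 1.44- to 2.11-fold, FOSB and MAFF did not pass the test, and BATF3 was the one member whose 3 JQ1 libraries all lay below DMSO. Thus 7 of 10 members were called higher at an adjusted p under 0.05 (edgeR quasi-likelihood test, Benjamini-Hochberg over all tested genes), and 0 lower. Of all tested genes 16.9% were called higher, 16.2% lower and 33.1% in either direction. That balance depended on the scaling: with library totals alone 2298 genes were called higher and 5368 lower, against 3665 and 3522 with TMM, while the members stayed at 7 higher and 0 lower. The median log2 fold change was 0.64 over the 10 members and -0.03 over all tested genes. Groups did not overlap for 8 members (7 higher, 1 lower), and for 50.4% of all tested genes (24.4% higher, 26% lower).

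In knockout cells the same comparison called 7 of 10 members higher and 0 lower, against 16.7% of all tested genes higher and 34.4% in either direction (17.8% lower). With library totals alone the genes called were 2409 higher and 5250 lower, against 3616 and 3856, and the members 7 higher and 1 lower. FOS, FOSB, FOSL1, FOSL2, JUN, JUNB and JUND rose by 1.36- to 2.89-fold, while ATF3, MAFF and BATF3 did not pass. FOS, FOSL1, FOSL2, JUN, JUNB and JUND were called in both genotypes, which is 6 of 7 calls in each. The members' median was 0.53, beside -0.00 for all genes. Groups did not overlap for 9 members (8 higher, 1 lower), and for 42.3% of all tested genes (20.3% higher, 22% lower).

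**Figure D2:**
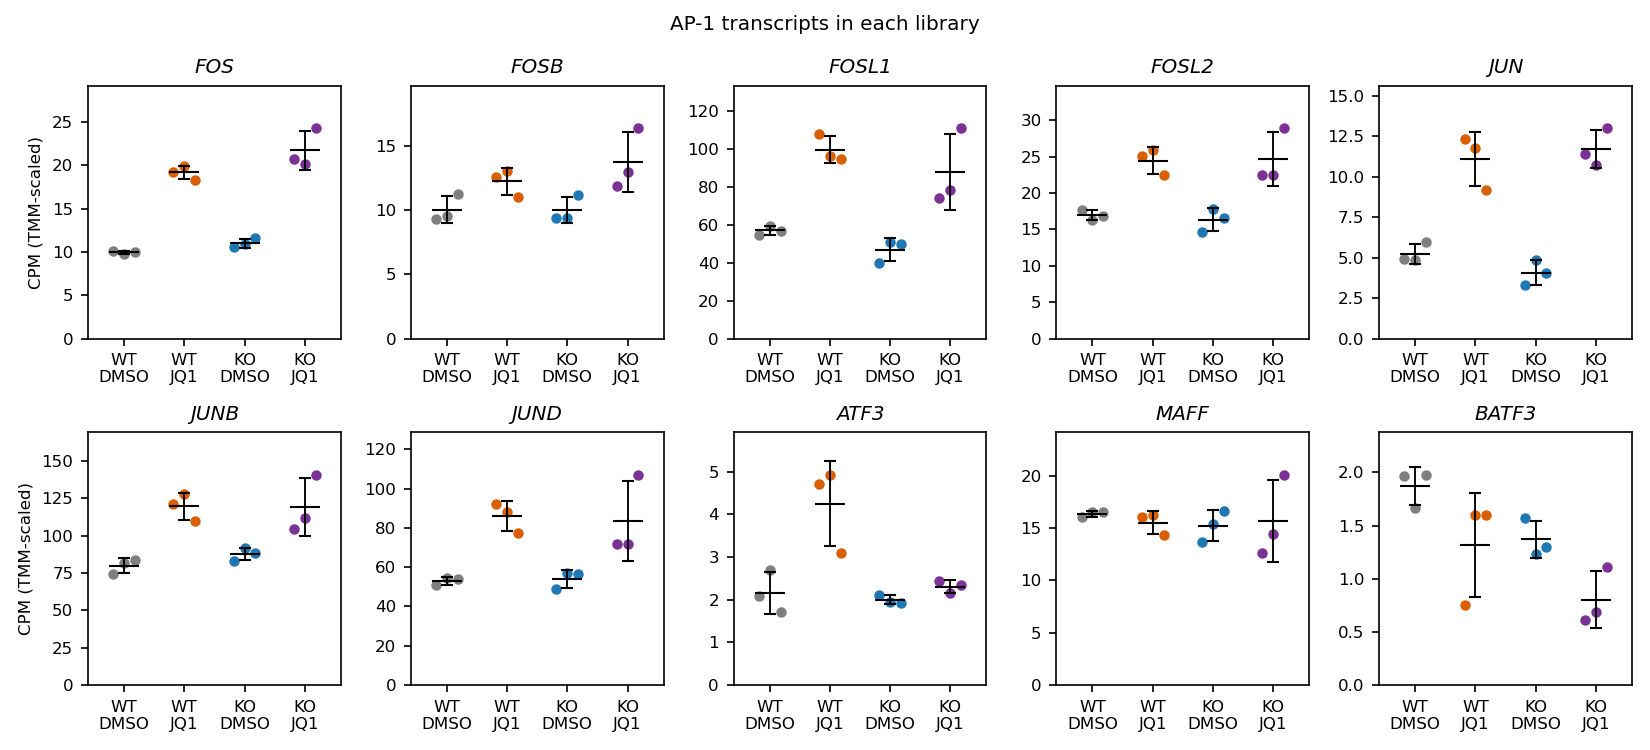
TMM-scaled CPM of each AP-1 member in each of the 12 libraries (points, left to right replicates 1 to 3), with mean and SD of 3 libraries per group (bars); axes start at 0 and differ between panels. FOS, FOSL1, FOSL2, JUN, JUNB and JUND were higher in JQ1 than in DMSO without overlap in both genotypes, and ATF3 was above 3 CPM in wild-type JQ1 alone.

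Among FOS genes, FOS itself (chr14:75278774-75282230 of GRCh38, plus strand) was measured at 10.1, 9.74 and 10.0 CPM in the 3 wild-type DMSO libraries and at 19.2, 19.96 and 18.4 CPM in wild-type JQ1. In the knockout it was at 10.5, 10.9 and 11.6 CPM in DMSO and at 20.7, 20.2 and 24.3 CPM in JQ1. Every JQ1 library lay above every DMSO library, with little spread inside groups. The log2 fold change was 0.95 (SE 0.09, edgeR adjusted p = 1.44e-06) in wild type and 0.98 (SE 0.09, edgeR adjusted p = 7.98e-07) in knockout. FOS, whose mRNA is known to be short-lived after a stimulus, was thus at 1.93 and 1.98 times its DMSO level after 48 h of drug.

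FOSL1 (chr11:65892049-65900573, minus strand), the main FOS transcript of these cells, was at 54.7, 59.4 and 56.7 CPM in wild-type DMSO and at 108, 96.0 and 94.7 CPM in wild-type JQ1. In the knockout the values were 39.7, 50.9 and 49.7 CPM in DMSO and 74.1, 78.1 and 111 CPM in JQ1. Groups did not overlap at either genotype, and the third knockout JQ1 library stood well above the other 2. The log2 fold change was 0.81 (SE 0.13, edgeR adjusted p = 0.000227) in wild type and 0.91 (SE 0.13, edgeR adjusted p = 7.61e-05) in knockout; without that library the latter was 0.70.

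FOSL2 (chr2:28392448-28417312, plus strand), which encodes FRA2, was at 16.4 to 17.7 CPM in wild-type DMSO and 22.4 to 25.9 CPM in wild-type JQ1. In the knockout it was at 14.6 to 17.8 CPM in DMSO and 22.5 to 28.9 CPM in JQ1. Its log2 fold changes were 0.53 (SE 0.11, edgeR adjusted p = 0.00144) and 0.60 (SE 0.11, edgeR adjusted p = 0.000538). FOSB (chr19:45467995-45475179, plus strand) moved less than the other FOS genes. It was at 9.30, 9.56 and 11.2 CPM in wild-type DMSO and 12.6, 13.1 and 11.03 CPM in wild-type JQ1, and these groups overlapped (log2 fold change 0.28, SE 0.13, edgeR adjusted p = 0.111). In the knockout FOSB was at 9.39, 9.41 and 11.2 CPM in DMSO and 11.8, 13.0 and 16.4 CPM in JQ1. That rise passed the test (0.46, SE 0.13, edgeR adjusted p = 0.0119), but not without replicate 3 of knockout JQ1 (0.32, adjusted p = 0.0532), nor with the authors' own scaling factors (0.39, adjusted p = 0.0833). Over 20 alternatives its adjusted p ran from 0.00117 to 0.0833.

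Among JUN genes, JUN (chr1:58780788-58784327, minus strand) had the largest estimated rise of the 10 members in the knockout and, with ATF3 close to it, in wild type. With the authors' scaling factors ATF3 came first in wild type (1.17, against 1.09 for JUN), as it did without replicate 2 of wild-type DMSO (1.16). JUN was at 4.89, 4.85 and 5.94 CPM in wild-type DMSO and 12.3, 11.8 and 9.17 CPM in wild-type JQ1. In the knockout it was at 3.30, 4.84 and 4.04 CPM in DMSO and 11.4, 10.8 and 13.0 CPM in JQ1. The lowest JQ1 library of either genotype exceeded the highest DMSO library. The log2 fold change was 1.08 (SE 0.15, edgeR adjusted p = 6.47e-05) in wild type and 1.53 (SE 0.16, edgeR adjusted p = 2.89e-06) in knockout, or 2.11-fold and 2.89-fold.

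JUNB (chr19:12791496-12793315, plus strand), often a weaker activator than JUN, was at 74.0, 81.8 and 83.8 CPM in wild-type DMSO and 121, 128 and 109.7 CPM in wild-type JQ1. Knockout cells had 83.2, 91.5 and 88.4 CPM of it in DMSO and 105, 112 and 141 CPM in JQ1. Its groups did not overlap, and the log2 fold changes of 0.58 (SE 0.10, edgeR adjusted p = 0.000312) and 0.44 (SE 0.10, edgeR adjusted p = 0.00238) were the smallest JUN-subfamily rises. JUND (chr19:18279760-18281622, minus strand), the JUN gene least dependent on growth stimuli, was at 50.8 to 54.4 CPM in wild-type DMSO and 77.3 to 92.2 CPM in wild-type JQ1. In the knockout JUND was at 48.7 to 57.3 CPM in DMSO and at 71.9, 71.9 and 107 CPM in JQ1. Its log2 fold changes were 0.69 (SE 0.13, edgeR adjusted p = 0.000739) and 0.63 (SE 0.13, edgeR adjusted p = 0.00143). Without replicate 3 of knockout JQ1 the knockout values were 0.90 for FOS, 0.70 for FOSL1, 0.46 for FOSL2, 1.45 for JUN, 0.31 for JUNB and 0.41 for JUND, and all 6 still passed.

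Of the other bZIP members, ATF3 (chr1:212565334-212620777, plus strand), a stress-induced factor that can repress, was measured on 53 to 150 counts per library. It was at 2.09, 2.69 and 1.70 CPM in wild-type DMSO and 4.71, 4.94 and 3.11 CPM in wild-type JQ1. Knockout libraries were at 2.12, 1.96 and 1.93 CPM in DMSO and 2.44, 2.15 and 2.34 CPM in JQ1. The 3 wild-type JQ1 libraries were above all 9 others, which lay between 1.70 and 2.69 CPM. The log2 fold change with JQ1 was 0.98 (SE 0.19, edgeR adjusted p = 0.00119) in wild type and 0.21 (95% confidence interval -0.24 to 0.65, edgeR adjusted p = 0.487) in knockout.

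MAFF (chr22:38200767-38216511, plus strand) was nearly level by its group means. Its group means were 16.4 ± 0.283, 15.5 ± 1.07, 15.2 ± 1.48 and 15.7 ± 3.91 CPM in wild-type DMSO, wild-type JQ1, knockout DMSO and knockout JQ1. The JQ1 log2 fold change was -0.08 (95% confidence interval -0.37 to 0.21) in wild type and 0.05 (-0.24 to 0.35) in knockout, so a rise as large as that of FOS lay outside both intervals. The knockout JQ1 libraries were at 12.6, 14.4 and 20.1 CPM. Without the highest of them, replicate 3, the knockout value for MAFF turned to -0.17 (edgeR adjusted p = 0.231). BATF3 (chr1:212686418-212699985, minus strand), a factor of dendritic and T cells, rested on 16 to 72 counts per library. It was at 1.97, 1.66 and 1.98 CPM in wild-type DMSO and 0.754, 1.60 and 1.60 CPM in wild-type JQ1. In the knockout it was at 1.57, 1.24 and 1.30 CPM in DMSO and 0.609, 0.690 and 1.11 CPM in JQ1. JQ1 libraries lay below DMSO without overlap in both genotypes, yet neither difference passed (log2 -0.51, edgeR adjusted p = 0.16, and -0.75, edgeR adjusted p = 0.066). Without replicate 3 of knockout JQ1 the knockout difference in BATF3 was -1.07 (adjusted p = 0.0186), within a range of 0.0186 to 0.199 over 20 alternatives.

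FOSL2, JUNB, FOSB and MAFF overlap genes on the opposite strand in GENCODE 29 (FLJ31356, HOOK2, ERCC1 and PLA2G6). The library kit keeps strand, but whether quantification used it is not given in the sources used here, so reads of such pairs may not be told apart in these 4 members. GC content moved with the JQ1 response: the median log2 fold change ran from -0.15 in the lowest decile of genes by transcript GC content to 0.14 in the highest in wild type, and from -0.10 to 0.10 in knockout. All members lay in deciles 6 to 10, with JUND at 69.7%, JUNB at 64.9% and MAFF at 61.8% GC highest. With per-library GC offsets, added after the data were seen, the wild-type log2 fold changes were 0.87 for FOS, 0.72 for FOSL1, 0.48 for FOSL2, 1.02 for JUN, 0.47 for JUNB, 0.56 for JUND and 0.99 for ATF3, and all 7 passed.

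The next comparison asked what the knockout alone did to AP-1 transcripts in DMSO. No member was called, and 7.92% of all tested genes were (3.47% higher, 4.44% lower). The genes called, 754 higher and 964 lower, became 516 and 1158 with library totals, 1102 and 900 with DESeq2, and 1634 and 1252 with GC offsets. DESeq2 also called 0 members. At an unadjusted p under 0.05 the count was 2 of 10, beside 19.7% of all tested genes. These were FOSL1 (log2 fold change -0.28, SE 0.13, edgeR adjusted p = 0.247) and JUN (-0.37, SE 0.16, edgeR adjusted p = 0.214). Groups did not overlap for 4 members, beside 29.6% of tested genes (14.8% higher, 14.7% lower): FOSL1, JUN and BATF3 were lower in the knockout and FOS higher. For JUN the gap was only between 4.84 and 4.85 CPM. FOSL1 passed the test in 4 alternatives, among them the fit without replicate 3 of knockout JQ1 (-0.28, adjusted p = 0.0321), a library that is not in this comparison but enters the shared estimate of spread, and the GC offsets (-0.29, adjusted p = 0.00913). Its adjusted p ran from 0.00913 to 0.562 over 20 alternatives.

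Under JQ1, 1 of 10 members was called between knockout and wild type, beside 8.57% of all tested genes. An unadjusted p under 0.05 was reached by 3 of 10 (ATF3, BATF3 and FOS), beside 20.7% of tested genes. ATF3 was lower by -0.87 on the log2 scale (SE 0.19, 95% confidence interval -1.29 to -0.46, edgeR adjusted p = 0.0107), a level of 0.55 of wild type, and all 3 knockout libraries lay below all 3 wild-type ones. Of all tested genes 8.57% were called, 5.56% lower and 3.01% higher (653 genes higher and 1207 lower, or 1722 and 1519 with GC offsets). The call was lost without replicate 1 of wild-type JQ1 (-0.79, adjusted p = 0.0523) or without replicate 2 (-0.75, adjusted p = 0.0579), and the adjusted p ran from 0.000747 to 0.0579 over 20 alternatives. Without replicate 3 of knockout JQ1 ATF3 was at -0.88 (adjusted p = 0.0195), BATF3 moved from -0.68 to -1.01 (adjusted p = 0.0628) and JUND from -0.04 to -0.26 (adjusted p = 0.051). In the same fit JUNB moved from -0.00 to -0.14, MAFF from 0.02 to -0.20, FOSL2 from 0.01 to -0.12, FOSB from 0.17 to 0.0222 and FOS from 0.18 to 0.0918, none of which passed. Groups did not overlap for 2 members, ATF3 and FOS, beside 23.1% of tested genes (10.7% higher, 12.4% lower). FOS was 0.18 higher (SE 0.08, edgeR adjusted p = 0.239). FOSL1 was at -0.18 (edgeR adjusted p = 0.482), and at -0.39 without replicate 3 of knockout JQ1 (adjusted p = 0.01003, the lowest of 20 alternatives, of which the highest was 0.814).

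Whether the drug response itself differed between genotypes was tested by the interaction of genotype and treatment. No member passed, and 0.134% of all tested genes did; DESeq2 likewise called 0 members. At an unadjusted p under 0.05 the count was 1 of 10, beside 8.37% of tested genes. That member was ATF3, with a response smaller by -0.77 on the log2 scale in the knockout (SE 0.28, 95% confidence interval -1.38 to -0.17, edgeR adjusted p = 0.466). So the passing of ATF3 in wild type and not in knockout is not shown to be a difference after adjustment. JUN had the opposite sign, 0.45 (95% confidence interval -0.01 to 0.92, edgeR adjusted p = 0.607). The intervals of all members but ATF3 held 0, among them FOS (-0.23 to 0.30), JUNB (-0.43 to 0.15) and JUND (-0.45 to 0.33). The wild-type rises of JUNB and JUND were only 0.58 and 0.69, so their intervals still held a loss of much of the rise. Equal responses are therefore not shown. Replicate 3 of knockout JQ1 moved the interaction values. Without it the interaction was -0.28 (SE 0.10, adjusted p = 0.234) for JUNB, -0.28 (SE 0.11, adjusted p = 0.270) for JUND and -0.05 for FOS, from -0.14, -0.06 and 0.04. ATF3 was then at -0.79 (adjusted p = 0.289), BATF3 at -0.56, JUN at 0.37, FOSL1 at -0.10 and FOSB at 0.0319. FOSL2 was at -0.066 and MAFF at -0.094, and no member passed. The comparisons share libraries, so their values are set side by side and not correlated.

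**Figure D3:**
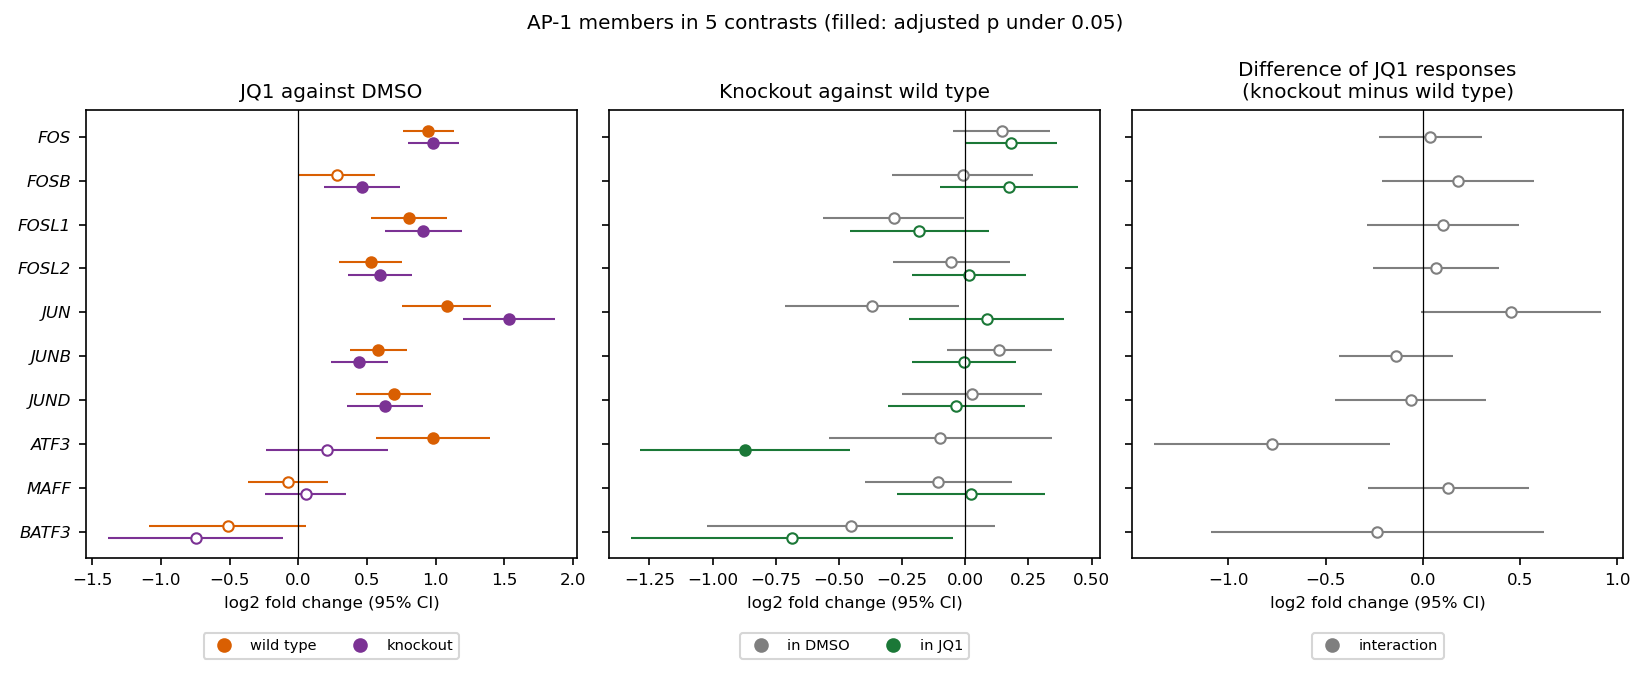
Log2 fold change with 95% confidence interval for each AP-1 member: JQ1 against DMSO in both genotypes (left), knockout against wild type in both treatments (middle) and the difference of the JQ1 responses (right). Filled points have an adjusted p under 0.05; most JQ1 points of the FOS and JUN genes are filled, and ATF3 in JQ1 is the single filled point of the middle panel.

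ATF3 and BATF3 are neighbours on chromosome 1q, beyond MAPKAPK2 (chr1:206684944-206734283) on the same arm. Genes that start after MAPKAPK2 on this arm were lower in the knockout as a group: 129 of 301 tested were called lower and 0 higher in DMSO (42.9% lower, against 4.44% of all tested genes), with a median log2 fold change of -0.39 and -0.00 for all genes. In JQ1 139 were called lower and 1 higher (46.2% lower, against 5.56% of all tested genes), with a median of -0.37. The 10 tested genes nearest to ATF3 and BATF3 were all negative in both treatments. Of these, 6 were called lower in DMSO (median -0.42) and 7 in JQ1 (median -0.41). PPP2R5A, a phosphatase subunit, was at -0.39 in DMSO and -0.56 in JQ1, and FLVCR1, a choline and haem transporter, at -0.45 and -0.59. DTL, which guides a ubiquitin ligase, was at -0.43 and -0.27. TMEM206 was at -0.41 and -0.31, NSL1 at -0.38 and -0.44, and ANGEL2 at -0.47 and -0.39. TATDN3, at -0.27 and -0.47, passed in JQ1 only. VASH2, at -0.69 and -0.47, passed in neither treatment. Close to ATF3, NENF was at only -0.10 in DMSO and -0.24 in JQ1, and AC092803.2 at -0.44 and -0.05. Neither of these passed in DMSO or in JQ1. ATF3 itself was at -0.10 in DMSO and -0.87 in JQ1, and BATF3 at -0.45 and -0.68. In the interaction test 0 of the 10 neighbours were called, with a median of 0.01. The part of the chromosome position in the ATF3 and BATF3 values was not tested.

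**Figure D4:**
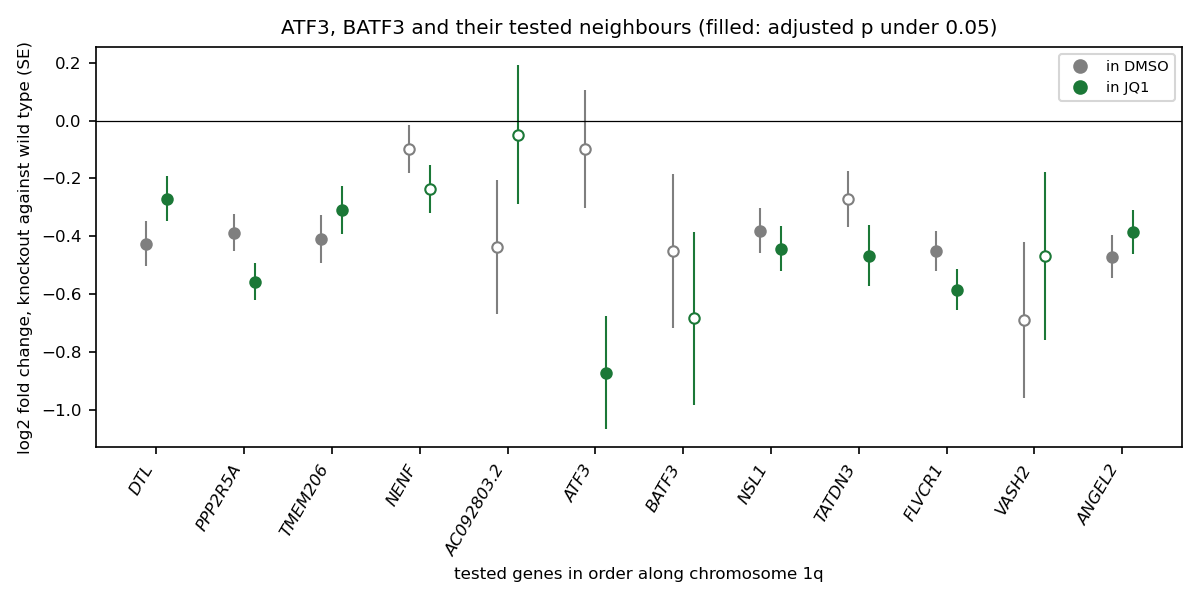
Log2 fold change of knockout against wild type (points, with SE) in DMSO and in JQ1 for ATF3, BATF3 and their 10 tested neighbours in order along chromosome 1q; filled points have an adjusted p under 0.05. All 10 neighbours lie below 0 in both treatments, and ATF3 is near 0 in DMSO and lowest of all in JQ1.

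Other bZIP relatives were listed as 12 genes, of which 10 were tested. With JQ1, 4 rose and 1 fell in either genotype (40% and 10%, beside 16.9% and 16.2% of all tested genes in wild type and 16.7% and 17.8% in knockout), with a median of 0.18 in wild type and 0.24 in knockout. Without replicate 3 of knockout JQ1 the knockout count was 2 higher and 1 lower, as without replicate 1 of knockout DMSO. MAF (c-MAF), a large MAF factor, went from 37.1 ± 0.933 to 79.1 ± 1.63 CPM in wild type (log2 fold change 1.09, edgeR adjusted p = 1.56e-07) and from 56.9 ± 3.12 to 116 ± 15.2 CPM in knockout (1.03, edgeR adjusted p = 2.05e-07). MAF was also higher in the knockout than in wild type, by 0.61 in DMSO (edgeR adjusted p = 0.000213) and 0.55 in JQ1 (edgeR adjusted p = 0.000371). MAFG, a small MAF like MAFF, rose by 0.51 in knockout (edgeR adjusted p = 0.000961), and its wild-type mean went from 56.5 ± 1.26 to 70.1 ± 6.49 CPM. MAFK, another small MAF, was lower in the knockout in DMSO (-0.32, edgeR adjusted p = 0.0475). ATF7, close kin of ATF2, rose by 0.34 in wild type (edgeR adjusted p = 0.00143), and its knockout mean went from 30.2 ± 0.773 to 35.2 ± 2.29 CPM. BATF2 fell with JQ1 in the knockout from 1.68 to 0.304 CPM, and MAFA rose in wild type from 0.188 to 0.797 CPM, both at very low levels. In the other genotype BATF2 went from 1.37 to 0.621 CPM and MAFA from 0.428 to 0.976 CPM.

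Small MAF proteins act with CNC and BACH partners, and BATF proteins with IRF factors. Of 8 such partners 6 were tested, and with JQ1 1 rose and 3 fell in either genotype (16.7% and 50%, beside the same shares of all genes; medians -0.41 and -0.28). NFE2L3 fell by 0.52 in wild type (edgeR adjusted p = 4.96e-06) and by 0.66 in knockout (edgeR adjusted p = 4.88e-07). NFE2L1, a factor for proteasome genes, rose by 0.29 and 0.39 (edgeR adjusted p = 0.00374 and 0.000296). BACH2, a repressor, fell by 0.57 in wild type (edgeR adjusted p = 0.00242), and NFE2 fell by 0.76 in knockout (edgeR adjusted p = 0.00635). IRF4 and IRF8, the known partners of BATF3, were not tested, with at most 7 and 0 counts in a library.

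Kinases and factors upstream of FOS and JUN were listed as 22 genes, all tested. With JQ1, 6 rose and 3 fell in wild type (median 0.11), which is 27.3% and 13.6% beside 16.9% and 16.2% of all tested genes. In knockout 9 rose and 4 fell (median 0.17), or 40.9% and 18.2% beside 16.7% and 17.8%. With library totals alone the balance turned, to 3 higher and 4 lower in wild type and 4 higher and 6 lower in knockout. Without replicate 2 of knockout DMSO the knockout count was 5 higher and 3 lower. RPS6KA1, the kinase RSK1, rose by 0.57 and 0.55 (edgeR adjusted p = 6.41e-06 and 7.84e-06), and MAP2K1, which activates ERK, by 0.45 and 0.55 (edgeR adjusted p = 2.69e-05 and 3.59e-06). MAPK3, which encodes ERK1, fell from 51.4 ± 2.13 to 37.2 ± 2.97 CPM in wild type and from 55.1 ± 3.52 to 30.3 ± 1.32 CPM in knockout. Knockout cells in DMSO had 4 of the 22 lower and 0 higher, or 18.2% and 0% beside 4.44% and 3.47% of all tested genes. MEF2C, which acts on the JUN promoter in other cells, was at 40.4 ± 2.78 CPM in wild type and 25.1 ± 1.84 CPM in knockout (log2 -0.69, edgeR adjusted p = 0.00139). MEF2A was at -0.45 (edgeR adjusted p = 0.00388) and RPS6KA2 at -0.52 (edgeR adjusted p = 0.00136). In JQ1 3 of the 22 were lower in the knockout and 0 higher, or 13.6% and 0% beside 5.56% and 3.01% of all tested genes. These were MEF2C (-0.69), MEF2A (-0.36) and MAPK3 (-0.30).

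Textbook AP-1 target genes were 23, of which 17 were tested; MMP3, MMP9, MMP10, MMP13, PLAU and IL6 had at most 6 counts in a library. With JQ1, 10 rose and 2 fell in wild type (median 0.44), which is 58.8% and 11.8% beside 16.9% and 16.2% of all tested genes. In knockout 9 rose and 2 fell (median 0.25), or 52.9% and 11.8% beside 16.7% and 17.8%. TIMP1, an inhibitor of matrix metalloproteases, went from 101 ± 0.937 to 223 ± 9.28 CPM in wild type and from 112 ± 5.39 to 232 ± 27.4 CPM in knockout. CCND1, the G1 cyclin D1, rose by 0.71 and 0.99 (edgeR adjusted p = 1.56e-07 and 4.26e-09). IL11, a cytokine of the IL6 family, rose by 1.63 and 1.95 (edgeR adjusted p = 5.20e-07 and 1.05e-07). Mean levels of the chemokine gene CXCL8 went the other way with JQ1, from 30.9 to 13.7 CPM in wild type and from 8.21 to 1.86 CPM in knockout. Knockout cells had 5 of the 17 lower and 0 higher in DMSO (median -0.29), or 29.4% and 0% beside 4.44% and 3.47% of all tested genes. In JQ1 they had 3 lower and 0 higher (median -0.15), or 17.6% and 0% beside 5.56% and 3.01%. Without replicate 3 of knockout JQ1 these were 7 lower and 1 higher in DMSO, and 5 lower and 0 higher in JQ1. The DMSO count was 3 lower and 0 higher without any 1 of the DMSO libraries other than replicate 2 of the knockout. CXCL8, the chemokine IL-8, was at 30.9 ± 1.97 CPM in wild-type DMSO and 8.21 ± 0.734 CPM in knockout DMSO (-1.91, edgeR adjusted p = 2.35e-07), and at 13.7 ± 0.856 and 1.86 ± 0.540 CPM under JQ1 (-2.90, edgeR adjusted p = 2.22e-08). In DMSO CCND1 (-0.32) and VEGFA (-0.40) were also lower in the knockout, and in JQ1 HMOX1 (-0.76) and HBEGF (-0.60). In DMSO HMOX1 was at 4.12 CPM in wild type and 2.90 CPM in knockout, and HBEGF at 3.14 and 1.99 CPM. No gene of the 4 lists passed the interaction test in the edgeR fit of all 12 libraries. CXCL8 passed with no filter on low counts (-0.999, adjusted p = 0.000251), with GC offsets (-0.999, adjusted p = 0.00806), without replicate 1 of knockout JQ1 (-1.18, adjusted p = 0.0414) and in DESeq2 (-1.01, adjusted p = 0.000478). DESeq2 also called CCND1 (0.26, adjusted p = 0.0376) and MAPK3 (-0.42, adjusted p = 0.0314).

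The genes whose log2 CPM followed each leading member most closely were sought among 11251 genes over the 12 libraries, as a description. These libraries share 4 groups and the GC trend above. For FOSL1 they were PLXNA3, a semaphorin receptor (r = 0.998), CNNM4, a magnesium transporter (r = 0.994), and MYH9, a non-muscle myosin (r = 0.992). For JUNB they were RALY (r = 0.989), CHPF (r = 0.989) and TRIM28 (r = 0.986), and for MAFF DENND4B (r = 0.955), DIDO1 (r = 0.949) and AGPAT3 (r = 0.936). Among members, FOSL2 (r = 0.956), JUND (r = 0.954) and JUN (r = 0.945) lay closest to FOSL1. MAFF (r = 0.279) and BATF3 (r = -0.411) lay farthest from it.

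Markers of other cell types were low. Their summed levels ran from 5.22 to 8.30 CPM for 5 keratinocyte genes, with KRT1 at 0 in all libraries, from 15.6 to 23.3 CPM for 5 fibroblast genes and from 0.812 to 2.35 CPM for 3 endothelial genes. The sum of 5 leukocyte genes was 3.70 to 3.79 CPM in wild-type DMSO and 1.79 to 2.10 CPM in wild-type JQ1, and 3.19 to 3.85 and 2.03 to 2.40 CPM in the knockout. BATF3, which is also known from leukocytes, was likewise lower in the JQ1 libraries, and the part of these markers in the BATF3 values was not tested.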

How the data were processed

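The deposited files were 2 gene-symbol tables for 12 libraries, one of estimated counts by the authors and one in which the authors had divided the counts by per-gene, per-library factors (a normalized signal), used here only to derive those factors. Per the submitters' processing notes, Trim Galore, cutadapt, FastQC, MultiQC, kallisto, DESeq2 and GRCh38.p10 were used; versions, the annotation release and strand settings are not given in the sources used here. Per the labels' protocols, libraries were made from rRNA-depleted RNA with a directional kit. The deposited counts were not whole although whole counts had been planned for, and were rounded. Groups came from sample titles. Genes were filtered (filterByExpr), scaled by TMM and tested with edgeR 4.0.16 (quasi-likelihood, R 4.3.3, limma 3.58.1) over all 12 libraries with 1 term per group; p-values were two-sided and Benjamini-Hochberg adjusted over 21698 genes, threshold 0.05. Log CPM used a prior count of 2. Alternatives included DESeq2 1.42.0. The test was checked on simulated counts with the same spread setting for every gene. They held no outlying library and no GC trend, so the check does not cover these features of the data. The members and gene lists were chosen with earlier results of these data known. All 10 members were named; from each other list, up to 3 genes per comparison with the smallest adjusted p under 0.05; the tested neighbours; and the 3 genes most like the most abundant member of each subfamily. Gene positions and lengths are from GENCODE 29 and promoters from RefSeq (GRCh38.p14).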

Additional observations from a re-analysis of the deposited data

How the results depend on the processing

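Rises with JQ1 kept their direction and side of the threshold for FOS, FOSL1, FOSL2, JUN, JUNB and JUND in both genotypes, and for ATF3 in wild type, under all 20 alternatives; FOS ranged from 0.82 to 0.99 in wild type and from 0.87 to 1.04 in knockout. Of 990 alternative values for members, 926 kept direction and side of the threshold. Members called between genotypes in DMSO became 1 (FOSL1) with no filter on low counts, with only the groups compared and with GC offsets, and in JQ1 0 at an adjusted p of 0.01 and 2 with GC offsets (ATF3, and FOS at 0.23, adjusted p = 0.0228). Leaving out 1 library gave 0 to 1 in DMSO and 0 to 2 in JQ1. Library totals alone moved the median of all genes from -0.03 to -0.16 (wild-type JQ1) and from -0.00 to -0.12 (knockout JQ1). The GC offsets were chosen after seeing the data and would also remove a true change linked to GC. The cause of these changes was not tested.

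FOSB with JQ1 in wild type passed with only the groups compared (0.30, adjusted p = 0.0348) and without replicate 3 of knockout JQ1 (adjusted p = 0.0440). BATF3 with JQ1 in knockout passed with no filter (adjusted p = 0.0463), library totals (-0.87, adjusted p = 0.0337), GC offsets (-0.78, adjusted p = 0.0443) and without replicate 1 of wild-type JQ1 (adjusted p = 0.0266), and BATF3 between genotypes in JQ1 without that library (-0.97, adjusted p = 0.0408). Values near 0 changed sign. Between genotypes in JQ1 these were FOSL2 (-0.000518 with no filter, -0.0204 with library totals), MAFF (-0.0113, library totals), JUNB (0.0024 with RLE factors, 0.0763 with GC offsets) and JUND (0.0605, GC offsets). In DMSO they were JUND (-0.0189, library totals) and FOSB (0.00629 with RLE factors, 0.0121 with DESeq2, 0.11 with the authors' factors). MAFF with JQ1 in knockout was at -0.0657 with library totals, and in the interaction FOSB was at -0.026 with the authors' factors and JUND at 0.0368 with GC offsets. Leaving out 1 library at a time gave sign changes with these ranges. In DMSO between genotypes they were -0.24 to 0.0900 for ATF3, -0.0895 to 0.0925 for FOSB and -0.10 to 0.0298 for FOSL2. In JQ1 they were -0.12 to 0.0769 for FOSL2, -0.0377 to 0.17 for JUN, -0.14 to 0.0817 for JUNB, -0.26 to 0.0638 for JUND and -0.20 to 0.16 for MAFF. In the interaction they were -0.0528 to 0.0884 for FOS, -0.10 to 0.21 for FOSL1, -0.066 to 0.13 for FOSL2, -0.28 to 0.0363 for JUND and -0.094 to 0.27 for MAFF, and with JQ1 in knockout -0.17 to 0.19 for MAFF.

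All genes called in the interaction, 29, became 236 with no filter (85 higher and 151 lower, against 7 and 22), 154 with DESeq2, 6 at an adjusted p of 0.01, 122 with GC offsets (43 and 79) and 8 to 88 without 1 library. Between genotypes in DMSO, 1718 became 2619 with only the groups compared, 926 at 0.01, 2886 with GC offsets and 1092 to 2650 without 1 library. In JQ1, 1860 became 922, 965, 3241 and 1223 to 2331. With JQ1 in wild type 7187 became 4781 at 0.01. Of 416 alternative counts for the 4 gene lists 47 moved by over 1.5 times. Between genotypes under JQ1, 2 to 5 targets and 1 to 6 upstream genes were called (1 without replicate 2 of wild-type JQ1, 5 without replicate 2 of knockout JQ1), and in DMSO 3 to 8 targets and 1 to 2 bZIP relatives. Pairing was looked for in what was left of each gene's log2 CPM after its group mean was taken off. In these remainders same-numbered libraries of different groups correlated at -0.115 to 0.0786 over 18 pairs. Pairs with different numbers ran from -0.136 to 0.106, so the same number went with no closer likeness. With the replicate number as a block the members called were 7, 7, 0, 1 and 0 as without it, and all genes called were 6789, 7136, 1487, 1569 and 21.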
